A study of Mus musculus with 4 samples.

Results

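The regions described here were fixed windows of 1 Mb on the 19 mouse autosomes, read for CpG methylation in tumors of the lung cancer lines 344SQP and 344SQR. A bin was included when it held 20 or more CpG sites that were covered by 20 or more reads in each of the 4 tumors and lay outside promoters, taken as 1000 bp upstream to 500 bp downstream of any annotated transcription start site. No methylation value entered this choice. Of 2473 autosomal bins, 2280 met it, 128 held 1 to 19 such sites and 65 held none. The 2280 bins held 462904 sites, with a median of 121 per bin and a range from 20 to 1893. The value of a bin in a tumor was the mean over its sites of the percent of cytosines read as methylated, and a difference between values is given in percentage points.

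Both lines were grown as tumors in syngeneic mice of the strain 129Sv/Ev, which were female and 12 to 16 weeks old. 344SQP is the parental line, a lung adenocarcinoma line with mutant p53, and 344SQR was derived from it as a line that resists antibody against PD1. Each was injected subcutaneously into the leg, anti-PD1 was given at 10 mg/kg from day 4 for 4 doses, and tissue was taken 24 h after the last dose. Reduced representation bisulfite sequencing, which reads fragments cut at CCGG and is rich in CpG-dense sequence, was carried out on 2 tumors per line. All 4 tumors were therefore treated, each line was a single cell line, and a bulk tumor also holds cells of the host. Values of the 2 tumors of a line are given throughout in the order replicate 1, replicate 2, and these numbers name tumors of different mice. The labels do not say whether tumors of equal number were handled together.

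Most of a mammalian genome between CpG islands is highly methylated in normal somatic tissue. In many cancers and long cultured cells the methylation is partly lost over long stretches known as partially methylated domains, which are poor in genes, replicate late in S phase and tend to contact the nuclear lamina. CpGs that stand far from other CpGs lose methylation there more readily than clustered ones, a pattern often described as incomplete maintenance over cell divisions. Neither replication timing nor lamina contact was measured in these tumors, so gene density, base composition and position serve below as the features of a bin.

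The sum of reads over all listed CpG cytosines was 116794455 and 138331886 in the 344SQP tumors and 160548303 and 174689402 in the 344SQR tumors. The 344SQR tumors were thus the deeper ones. At the minimum of 20 reads, 1 read moves a site by 5 points, and a bin averages 20 or more such sites. The library of 344SQR replicate 2 listed 6377285 sites, of which 66.7% had 1 to 4 reads and played no part in the bin values. In the other libraries 53.4%, 45.7% and 62.7% of listed sites had that few reads (344SQP replicates 1 and 2, 344SQR replicate 1).

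Averaged over the 2280 bins, methylation was 66.0% and 66.3% in the 344SQP tumors and 61.2% and 55.9% in the 344SQR tumors. Both 344SQR tumors lay below both 344SQP tumors, and 344SQR replicate 2 lay lowest. The line means were 66.1% ± 0.167 and 58.6% ± 3.73 (SD, n = 2 each), a difference of -7.56 points, which was -4.92 without 344SQR replicate 2 and -10.2 without 344SQR replicate 1. A two-sided exact permutation test over tumors gave p = 0.333, the smallest value that 2 tumors against 2 can give. The gap between the 344SQR tumors, -5.27 points from replicate 1 to replicate 2, was much larger than that between the 344SQP tumors at 0.237.

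The whole distribution of bins moved. Bins at 80% methylation or higher made up 25.8% and 20.4% of all bins in the 344SQP tumors but 7.37% and 1.80% in the 344SQR tumors. Bins between 40% and 60% made up 28.4% and 26.7% in 344SQP and 35.5% and 50.0% in 344SQR. The high end of the distribution was thus thinned in both 344SQR tumors and the middle filled. The SD over bins was 16.3 and 14.6 points in 344SQP and 14.4 and 12.4 in 344SQR, so the bins of 344SQR replicate 2 were the most alike among the 4 tumors.

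Counted bin by bin, both 344SQR tumors were below both 344SQP tumors in 2012 bins (88.2%), above both in 3 (0.132%), and the lines overlapped in 265. The difference of line means was below 0 in 2226 bins, with a median of -6.51 points, a 10th percentile of -14.6, a 90th of -2.22 and extremes of -26.8 and 9.29. It was -10 points or lower in 645 bins, -15 or lower in 207 and -20 or lower in 30. Tumors of the same line also differed from bin to bin. 344SQR replicate 2 was below replicate 1 in 1960 bins, with an SD over bins of 6.09 points, and 344SQP replicate 2 was below replicate 1 in 1224 bins, with an SD of 4.27. The SD over bins of the difference between lines was 4.93 points, which lies between these values.

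The edgeR quasi-likelihood test on methylated and unmethylated reads called 377 of 2280 bins lower in 344SQR (16.5%) and 1 higher (0.0439%), at a Benjamini-Hochberg adjusted p under 0.05. At an unadjusted p under 0.05 it called 955 lower and 3 higher. Which bins pass rested on single tumors. Without 344SQP replicate 1 edgeR called 0 bins (328 at unadjusted p under 0.05; limma called 0), without 344SQP replicate 2 it called 7 lower and 1 higher, without 344SQR replicate 1 it called 1124 lower and 3 higher, and without 344SQR replicate 2 it called 0 (395 unadjusted; limma called 0). With all 4 tumors limma on the bin means called 0 bins, with 794 lower and 0 higher at unadjusted p under 0.05. When each tumor was first centred on its median bin, limma again called 0, and its unadjusted calls were 165 lower and 25 higher, so that 86.8% were lower in place of 100% without centring. Centring itself moves the balance of directions, since 969 of the 2280 centred differences were below 0 against 2226 before. With the replicate number as a block, a pairing that the labels do not state, edgeR called 797 lower and 1 higher and limma 977 lower and 2 higher. With a minimum of 50 reads per site edgeR called 0 bins lower (809 at unadjusted p under 0.05), and with CpG-poor sites alone 86. CpG-poor sites are those with at most 3 other CpGs within 100 bp on each side, so they need not be isolated CpGs. A lower level in most bins was thus common to both 344SQR tumors. The number of single bins called depended on the test, the block, the tumors and the sites read.

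Methylation and its difference followed gene density, counted as protein-coding genes whose 5′ end lies in the bin. The 494 bins with 0 to 1 genes stood at 75.9% and 74.6% in 344SQP and 68.2% and 58.7% in 344SQR. In the 274 bins with 20 or more genes the values were 60.2% and 61.1% in 344SQP and 57.0% and 54.0% in 344SQR. The gene-poor bins were therefore the most methylated in each tumor, and both 344SQR tumors were below both 344SQP tumors at either end of the scale. The mean difference was -11.8 points with 0 to 1 genes, -7.69 with 2 to 4 (468 bins), -6.20 with 5 to 9 (569 bins), -6.03 with 10 to 19 (475 bins) and -5.13 with 20 or more. Differences of -10 points or lower were found in 68.8%, 29.9%, 14.8%, 12.2% and 8.39% of the bins of these classes. In the test of single bins, edgeR called 114 gene-poor bins lower (23.1%) and 22 of the gene-rich bins (8.03%), beside 16.5% of all bins. The classes between had 16.7%, 13.7% and 17.9% called in order of gene number, so the calls did not follow gene density step by step.

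As 1 value per tumor, gene-poor minus gene-rich bins came to 15.8 and 13.5 points in 344SQP and to 11.2 and 4.74 in 344SQR. The contrast was smaller in both 344SQR tumors, by -6.69 points on average, and smallest in replicate 2. The two-sided exact permutation test gave p = 0.333, again the smallest it can give. Leaving out 344SQR replicate 2 brought the difference to -3.49 points, and leaving out 344SQR replicate 1 brought it to -9.90. Between tumors of the same line the contrast also moved, by -2.25 points in 344SQP and -6.41 in 344SQR, so the 344SQR tumors differed from each other nearly as much as the lines did.

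Across the 2280 bins, Spearman's rho between gene number and the difference was 0.405 for 344SQR replicate 1 minus 344SQP replicate 1 and 0.444 for 344SQR replicate 2 minus 344SQP replicate 2. In the other pairing of the same tumors it was 0.247 for 344SQR replicate 1 minus 344SQP replicate 2 and 0.408 for 344SQR replicate 2 minus 344SQP replicate 1. Bins with more genes thus lost less in every pair. The same sign was seen within lines, with rho = 0.267 for replicate 2 minus 1 of 344SQP and 0.391 for replicate 2 minus 1 of 344SQR, so this gradient was not particular to the difference between lines. Other features of a bin followed the difference in a like way. In the pairs of equal number rho was 0.473 and 0.520 with CpGs per kb, 0.419 and 0.462 with GC content, 0.343 and 0.369 with the share of the bin in genes, and -0.317 and -0.343 with the share in repeats. For 344SQR replicate 1 minus 344SQP replicate 2 these were weaker, at 0.246, 0.212, 0.175 and -0.121 in the same order, and for 344SQR replicate 2 minus 344SQP replicate 1 they were 0.494, 0.445, 0.358 and -0.351. The signs thus agreed in all 4 pairs, while the strength depended on the tumors compared. These correlations are descriptions, since bins share the libraries, their depth and base composition, and gene-poor bins are also AT-rich and hold few sites.

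The number of qualified sites had the largest rho of these features in the pairs of equal number, 0.540 and 0.593, and for 344SQR replicate 2 minus 344SQP replicate 1, 0.595. For 344SQR replicate 1 minus 344SQP replicate 2 it was 0.170, below the rho of gene number, CpGs per kb, GC content and the share in genes. By Pearson's r it came after CpGs per kb in the pairs of equal number as well, with 0.374 and 0.416 against 0.438 and 0.497, and after GC content, with 0.406 and 0.461, so the order of the features depended on the pair and the measure. The 495 bins with 20 to 49 sites stood at 80.1% and 77.7% in 344SQP and 72.0% and 61.1% in 344SQR. The 785 bins with 200 or more sites stood at 56.9% and 58.5% in 344SQP and 54.0% and 51.9% in 344SQR. Few sites thus went with a high level and a larger loss, -12.4 against -4.73 points. Among bins with 20 to 49 sites the difference was -13.3 points with 0 to 1 genes (303 bins), -10.8 with 2 to 19 (174 bins) and -12.4 with 20 or more (18 bins). Among those with 200 or more sites the values were -6.51 (17 bins), -4.93 (559 bins) and -4.05 (209 bins). Gene number and site number are tied in this assay, and their parts cannot be told apart fully. Bins just under the threshold of 20 sites lost somewhat more than those just over it, -16.0 against -13.3 points. The 89 bins with 20 to 24 sites stood at 82.3% and 79.2% in 344SQP and 73.4% and 61.5% in 344SQR, and the 58 bins with 15 to 19 sites, which were not members, at 80.3% and 77.4% in 344SQP and 69.4% and 56.4% in 344SQR.

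Gene-rich bins were not uniform. Of the 274 bins with 20 or more genes, 49 held 5 or more olfactory, vomeronasal or trace amine receptor genes, which lie in large tandem arrays and are silent outside sensory epithelia. These 49 bins stood at 68.2% and 67.9% in 344SQP and 63.3% and 57.5% in 344SQR, a difference of -7.67 points. The other 225 stood at 58.4% and 59.6% in 344SQP and 55.7% and 53.2% in 344SQR, a difference of -4.58. Of the 23 gene-rich bins at -10 points or lower, 16 belonged to the 49 with receptor arrays. These were 32.7% of the 49, near the 28.3% of all bins, while the share among the other 225 was 3.11%. This split was chosen after the values were seen, and receptor bins also held fewer sites, a median of 100 against 490.

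How the bins of the tumor pairs corresponded depended on the pairing. Across the 2280 bins, 344SQR replicate 1 minus 344SQP replicate 1 correlated with 344SQR replicate 2 minus 344SQP replicate 2 at r = 0.896 (rho = 0.903). With the same tumors paired the other way, 344SQR replicate 1 minus 344SQP replicate 2 against 344SQR replicate 2 minus 344SQP replicate 1, r was -0.0163 (rho = 0.136). Neither pairing shares a tumor between its differences, and bins share library and base composition. A ranking of single bins by loss that held in the first pairing was therefore not seen in the second with all sites outside promoters, though r in the second was 0.40 with CpG-poor sites alone and 0.159 with 5000 bp around each start site left out. Replicate 2 minus 1 of 344SQP correlated with replicate 2 minus 1 of 344SQR at r = 0.844, so tumors of equal number deviated together, and the part of a shared batch in this was not tested. By contrast, the direction of the mean was the same in all 4 pairs, at -4.81, -10.3, -5.04 and -10.1 points in the order just named. Within the gene-poor bins r was 0.840 in the first pairing and -0.145 in the second, and within the gene-rich bins 0.899 and -0.0211.

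The level at the start showed the same dependence. Taking the level from 344SQP replicate 1 and the difference from 344SQR replicate 2 minus 344SQP replicate 2, the mean difference was -3.95 points in bins below 40% (152 bins), -6.29 at 40% to 60% (647 bins), -10.7 at 60% to 80% (892 bins) and -15.8 at 80% or higher (589 bins). Highly methylated bins thus lost most in that pair. Taking the level from the same tumor and the difference from 344SQR replicate 1 minus 344SQP replicate 2, the values were -4.68, -5.23, -4.81 and -5.29 points and did not follow the level. With the level of 344SQP replicate 2, 344SQR replicate 1 minus 344SQP replicate 1 went from -2.08 to -6.84 points between the lowest and the highest class, and 344SQR replicate 2 minus 344SQP replicate 1 from -3.58 to -16.1. At a similar level gene-poor bins still lost more than gene-rich ones. Among bins at 60% to 80% in 344SQP replicate 1, those with 0 to 1 genes differed by -16.8 points and those with 20 or more by -7.91 for 344SQR replicate 2 minus 344SQP replicate 2, and by -6.55 and -3.90 for 344SQR replicate 1 minus 344SQP replicate 2.

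The loss was spread over all 19 autosomes. On each of the 19 the mean over bins was lowest in 344SQR replicate 2 and second lowest in 344SQR replicate 1. The lowest mean difference was on chromosome 1, -8.64 points over 183 bins, where the tumors stood at 69.4% and 69.1% in 344SQP and 63.9% and 57.2% in 344SQR. Chromosome 2 had the smallest loss, -6.25 points over 169 bins, at 62.1% and 63.0% in 344SQP and 58.3% and 54.3% in 344SQR. Both 344SQR tumors were below both 344SQP tumors on either chromosome, and the range over chromosomes was narrower than the gap of -5.27 points from 344SQR replicate 1 to replicate 2. Chromosomes 6, 8 and 3 followed chromosome 1 with -8.62, -8.51 and -8.48 points, and chromosomes 19 and 13 came next to chromosome 2 with -6.32 and -6.59. Chromosome accounted for 2.30% of the variance of the difference over bins and the 5 classes of gene density for 23.1%. Over the 19 chromosomes the mean difference correlated with genes per bin at r = 0.491 (rho = 0.463), as a description. That trend had plain exceptions, as chromosome 6 with 8.17 genes per bin and chromosome 13 with 7.16 lay at opposite ends of the order. On chromosome 13 gene-poor bins differed by -9.39 points (25 bins) and on chromosome 1 by -13.8 (47 bins).

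Neighbouring bins resembled each other weakly. Over 2162 pairs of adjacent bins the difference correlated at r = 0.228 (rho = 0.213), and r was 0.141 at 2 Mb, 0.0594 at 3 Mb, 0.0705 at 4 Mb, 0.0330 at 5 Mb, 0.0641 at 6 Mb, 0.00392 at 10 Mb and 0.0575 at 20 Mb. The likeness thus fell over the first 3 Mb and had no steady course beyond. Among bins with 50 or more sites r at 1 Mb was only 0.0944. Gene number itself was far smoother along the chromosome, with r = 0.598 at 1 Mb and 0.165 at 5 Mb. Reading a bin in one tumor pair and its neighbour in the other gave r = 0.204 for 344SQR replicate 1 minus 344SQP replicate 1 against 344SQR replicate 2 minus 344SQP replicate 2, and 0.0927 in the other pairing. Once the mean of each gene density class was taken off, the first of these was 0.112. Within lines r at 1 Mb was 0.0439 for 344SQP and 0.138 for 344SQR (replicate 2 minus 1). All of these describe bins of the same libraries, and adjacent bins share base composition and gene density.

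Stretches of loss longer than a bin were taken as runs of 3 or more adjacent bins, each with both 344SQR tumors below both 344SQP tumors and a difference of -10 points or lower. There were 63 runs with 235 bins, 10.3% of all, on 18 chromosomes, and 9 of them had 5 or more bins. The count depended on the tumors, with 119 runs without 344SQR replicate 1 and 4 without 344SQR replicate 2, both chosen as alternatives after the data were seen. Bins in runs stood at 81.0% and 77.9% in 344SQP and 71.1% and 58.7% in 344SQR. Bins outside runs stood at 64.3% and 64.9% in 344SQP and 60.1% and 55.6% in 344SQR. In 344SQR replicate 2 the runs were thus within a few points of the rest of the genome, while in 344SQP they stood well above it. The runs were chosen on these values, so their loss of -14.5 points against -6.76 elsewhere is a description.

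Bins in runs also differed in features that the choice did not use. They held 3.49 genes on average against 9.57 outside, 56.0 sites against 220, a GC content of 38.4% against 42.6%, a repeat content of 40.7% against 32.2% and 21.9% against 44.5% of their length in genes. Bins with 0 to 1 genes made up 63.0% of the bins in runs and 16.9% of the others. The edges were steep at this resolution. Inner bins differed by -14.8 points (109 bins, 3.09 genes per bin), first or last bins by -14.3 (126 bins, 3.84 genes), bins 1 Mb outside by -5.0 (100 bins, 8.05 genes) and bins 2 Mb outside by -7.85 (108 bins). Part of that step is set by the choice, since a bin beyond -10 points would have joined the run.

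Runs were also chosen in 1 tumor pair and read in tumors that the choice did not use. Chosen on 344SQR replicate 2 minus 344SQP replicate 2 there were 124 runs with 494 bins, where 344SQR replicate 1 minus 344SQP replicate 1 was -8.27 points against -3.85 outside, and below 0 in all 494, beside 94.7% of all bins in that pair. Chosen on 344SQR replicate 1 minus 344SQP replicate 1 there were 7 runs with 23 bins, where 344SQR replicate 2 minus 344SQP replicate 2 was -22.2 points against -10.2 outside. In the other pairing, added after the data were seen, the runs were far less distinct. Chosen on 344SQR replicate 2 minus 344SQP replicate 1 there were 128 runs with 495 bins, where 344SQR replicate 1 minus 344SQP replicate 2 was -5.83 points against -4.82 outside and below 0 in 492, beside 98.4% of all bins. On 344SQR replicate 1 minus 344SQP replicate 2 there were 0 runs. Loss was thus found inside the runs in unused tumors, but an excess over the rest of the genome depended on which tumors were compared.

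The 5 longest runs lay on chromosomes 3, 4 and 12. The run at chr3:70000001-79000000 (mm10, 9 bins, 301 sites, 12 protein-coding genes) stood at 83.2% and 80% in 344SQP and 72.8% and 59.3% in 344SQR, a difference of -15.5 points. It holds Fstl5, which encodes a secreted follistatin-like protein, Wdr49, a WD-repeat gene, and Otol1, for a collagen-like protein of the otoconia of the inner ear. Sites in the Fstl5 body stood at 80.6% and 78.9% in 344SQP and 70.9% and 58.2% in 344SQR (19 sites), and those in Wdr49 at 89.3% and 88.0% in 344SQP and 82.9% and 76.8% in 344SQR (14 sites). Next to it, the bin at chr3:69000001-70000000 differed by -5.23 points and that at chr3:79000001-80000000 by -3.78, and each held 9 genes.

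The run at chr12:60000001-69000000 (9 bins, 344 sites, 12 genes) stood at 82.1% and 77.9% in 344SQP and 72.1% and 59.7% in 344SQR, a difference of -14.1 points. It spans Lrfn5, a synaptic adhesion molecule, Mdga2, a membrane-anchored protein of neurons that binds neuroligins, and Fancm, a DNA translocase of the Fanconi anemia pathway. The Mdga2 body stood at 85.7% and 78.8% in 344SQP and 67.0% and 56.3% in 344SQR (12 sites), without overlap. Lrfn5 was lower from the outset, at 43.5% and 52.6% in 344SQP and 36.9% and 37.8% in 344SQR (41 sites). The adjacent bin at chr12:69000001-70000000, with 21 genes, differed by -3.91 points, and that on the other side, chr12:59000001-60000000, by -8.16 (adjusted p = 0.0343), so the edge was less steep there.

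At chr4:13000001-21000000 (8 bins, 397 sites, 24 genes) the values were 77.1% and 74.2% in 344SQP and 67.2% and 54.6% in 344SQR, a difference of -14.8 points. Its genes were not alike. Cnbd1, which encodes a protein with a cyclic nucleotide-binding domain, stood at 83.8% and 81.8% in 344SQP and 67.2% and 53.1% in 344SQR (27 sites). Runx1t1, a transcriptional corepressor, stood at 25.3% and 32.3% in 344SQP and 26.5% and 29.4% in 344SQR (17 sites), with overlap, and Tmem64, a membrane protein gene, was at 2.11% or lower in all 4 tumors (17 sites). The weakly methylated sites of these 2 genes, which lie beyond the promoter window, thus added little to the loss over the run.

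The run at chr3:20000001-27000000 (7 bins, 381 sites, 10 genes) stood at 86.9% and 84.6% in 344SQP and 75.9% and 65.3% in 344SQR, a difference of -15.1 points. Naaladl2, a relative of glutamate carboxypeptidase and the gene with the most sites there, stood at 88.2% and 88.4% in 344SQP and 76.2% and 64.1% in 344SQR (51 sites). Nlgn1, the postsynaptic adhesion molecule neuroligin 1, stood at 84.0% and 85.1% in 344SQP and 68.0% and 57.3% in 344SQR (10 sites). Spata16, a gene of sperm development, stood at 89.7% and 84.6% in 344SQP and 76.9% and 62.6% in 344SQR (17 sites). In this run edgeR called 6 of the 7 bins lower, compared with 3 of 9, 1 of 9, 2 of 8 and 2 of 6 in the others and 16.5% of all bins, although each run was chosen for its difference. The run at chr12:92000001-98000000 (6 bins, 246 sites) held a single protein-coding gene, Flrt2, for an adhesion protein of axon guidance. It stood at 79.9% and 73.6% in 344SQP and 68.3% and 53.6% in 344SQR, a difference of -15.8 points, with the Flrt2 body at 34.0% and 35.7% in 344SQP and 25.5% and 24.6% in 344SQR (17 sites).

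Within the bins, the mean loss was larger where fewer CpGs lay nearby, though not in each pair of tumors. Sites with no other CpG within 35 bp on either side stood at 74.0% and 71.3% in 344SQP and 66.8% and 56.9% in 344SQR (59960 sites). Sites with 1 to 3 other CpGs stood at 68.1% and 68.6% in 344SQP and 64.3% and 60.1% in 344SQR (296419 sites). Sites with more than 3 stood at 24.1% and 29.9% in 344SQP and 24.4% and 29.5% in 344SQR (106525 sites). Lone CpGs thus differed by -10.8 points and CpGs with few neighbours by -6.15, without overlap, while in dense CpGs the lines overlapped and the difference was -0.000174. Averaged over bins in place of sites, the differences of the 3 classes were -12.6, -7.83 and -1.73 points, so dense CpGs lost least by either average but were near 0 only over sites. Lone minus dense sites, as 1 value per tumor, came to 49.9 and 41.4 points in 344SQP and 42.3 and 27.3 in 344SQR, and these overlapped (two-sided exact permutation p = 0.667). The value of 344SQR replicate 1 lay above that of 344SQP replicate 2. In that pair lone CpGs thus did not lose more than dense ones. The difference in this contrast, -10.8 points, was -18.3 without 344SQR replicate 1, -6.53 without 344SQP replicate 1 and -3.31 without 344SQR replicate 2.

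Lone CpGs differed between gene-poor and gene-rich bins too. Those in bins with 0 to 1 genes stood at 75.5% and 70.7% in 344SQP and 64.1% and 49.6% in 344SQR (5057 sites), and those in bins with 20 or more genes at 72.7% and 70.7% in 344SQP and 67.0% and 58.8% in 344SQR (13587 sites). The differences were -16.2 and -8.81 points. Gene-poor minus gene-rich lone CpGs came to 2.83 and 0.0106 points in 344SQP and -2.84 and -9.18 in 344SQR, so the sign was reversed in both 344SQR tumors (two-sided exact permutation p = 0.333, the smallest possible). The difference in this contrast was -7.43 points, and -4.26 without 344SQR replicate 2. In the parental tumors lone CpGs thus had about the same level in either kind of bin, whereas CpGs with 1 to 3 others nearby stood at 76.0% and 75.5% in gene-poor bins and 66.0% and 66.7% in gene-rich bins of 344SQP. In bins with 0 to 1 genes dense CpGs stood at 34.8% and 42.8% in 344SQP and 34.5% and 41.1% in 344SQR (5204 sites), with the lines overlapping, a difference of -0.958 points over sites and -4.02 averaged over bins.

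The bases beside the CpG went with the level among lone CpGs, and less clearly with the difference over all sites. Over all sites, CpGs with A or T on both sides stood at 60.8% and 60.4% in 344SQP and 55.7% and 50.0% in 344SQR (37643 sites), and those with G or C on both at 59.7% and 61.2% in 344SQP and 56.6% and 53.9% in 344SQR (296423 sites). The differences were -7.70 and -5.17 points, and -5.04 with A or T on 1 side. As 1 value per tumor, A or T minus G or C came to 1.04 and -0.782 points in 344SQP and -0.868 and -3.93 in 344SQR (two-sided exact permutation p = 0.333, the smallest possible), so the nearest tumors of the lines hardly differed. The difference in this contrast, -2.53 points, was -0.996 without 344SQR replicate 2, -1.62 without 344SQP replicate 1 and -4.06 without 344SQR replicate 1. Among lone CpGs, A or T on both sides gave 61.1% and 55.7% in 344SQP and 52.8% and 40.8% in 344SQR (2158 sites), and G or C on both sides 75.1% and 72.6% in 344SQP and 68.0% and 58.2% in 344SQR (52467 sites). Levels with A or T minus those with G or C thus came to -13.9 and -16.9 points in 344SQP and -15.1 and -17.4 in 344SQR, which overlapped. The difference in that contrast was -0.873 points, and it turned to 0.596 without 344SQP replicate 1 and to 0.276 without 344SQR replicate 2. Few sites carry A or T on both sides here. The assay selects fragments that end in CCGG, and the part of this in the small number was not tested.

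Position relative to genes and repeats gave further contrasts. Sites between genes stood at 64.8% and 64.3% in 344SQP and 59.4% and 52.8% in 344SQR (128294 sites), and sites in protein-coding genes at 56.2% and 58.3% in 344SQP and 53.9% and 52.7% in 344SQR (312433 sites). The differences were -8.47 and -3.97 points, without overlap in either class. Sites in repeats, the lower-case bases of the reference, stood at 77.2% and 75.3% in 344SQP and 70.7% and 62.2% in 344SQR (48676 sites). Sites outside repeats stood at 56.6% and 58.2% in 344SQP and 53.7% and 51.5% in 344SQR (414228 sites). The differences were -9.80 and -4.81 points. Among lone CpGs they were -14.1 points in repeats (8900 sites) and -10.2 outside (51060 sites). Repeats and other sites also differed in level, and the part of this was not tested. Repeats between genes in gene-poor bins stood at 85.3% and 82.0% in 344SQP and 76.2% and 63.9% in 344SQR (7979 sites), a difference of -13.6 points, while lone CpGs in repeats of gene-poor bins differed by -19.2 (1798 sites). Between genes minus in genes came to 8.57 and 5.98 points in 344SQP and 5.44 and 0.118 in 344SQR, and repeat minus other sites to 20.6 and 17.1 in 344SQP and 17.0 and 10.7 in 344SQR. Both contrasts were smaller in both 344SQR tumors (two-sided exact permutation p = 0.333 each, the smallest possible), although for repeats the nearest tumors of the lines lay close together. The difference in the first, -4.50 points, was -7.16 without 344SQR replicate 1 and -1.84 without 344SQR replicate 2. That in the second, -4.99, was -8.14 and -1.83 without the same tumors and -3.22 without 344SQP replicate 1.

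Bins were also read by the genes whose 5′ ends they hold. Long neuronal adhesion and fragile-site genes, which span long stretches of DNA and often replicate late, had member bins for 24 of 28 genes, and all 24 had a difference below 0 with a median of -7.65 points, beside 97.6% of all bins below 0 with a median of -6.51. Of these 24 bins, edgeR called 3 lower, against 16.5% of all bins. The bin of Csmd3, a large membrane protein with CUB and sushi domains, stood at 79.1% and 74.6% in 344SQP and 69.3% and 51.6% in 344SQR (-16.4 points, 25 sites). The bin of Fhit, the gene at a well known fragile site, differed by -13.1 points (55.3% and 54.8% in 344SQP, 46.6% and 37.2% in 344SQR). At the other end, the bin of Ctnna2, a neuronal alpha-catenin, stood at 40.3% and 64.0% in 344SQP and 39.6% and 60.6% in 344SQR, with overlap, so here the tumors of each line differed more than the lines.

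Bins with olfactory and vomeronasal receptor genes (125 of 130 were members) had a median difference of -6.96 points, with 22 called lower by edgeR. The share of all bins called lower, 16.5%, stands beside this and the following counts. Those of housekeeping genes lost less, with a median of -4.37 points for ribosomal protein genes (88 bins, 7 called) and -3.54 for proteasome subunit genes (37 bins, 1 called). The proteasome bins stood at 54.2% and 55.9% in 344SQP and 52.1% and 50.7% in 344SQR. Bins with 5 or more zinc finger genes of the Zfp type had a median of -5.05 points (19 of 20 bins, 2 called), and those with clustered genes of differentiated epithelia and host defence, such as keratins and defensins, -5.33 (21 of 22 bins, 4 called). The 5 bins of the Hox clusters, which pattern the body axis, stood at 40.6% and 47.9% in 344SQP and 39.4% and 43.5% in 344SQR. Their median was -2.70 points, the lines overlapped in the mean, and edgeR called 0 of the 5 (0 at unadjusted p under 0.05; limma called 0). These lists differ in gene density and site number, whose part in the medians was not tested.

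By rule, the bins with the largest loss among those with 50 or more sites and no overlap between lines were named. The first, chr8:28000001-29000000 (53 sites, no gene start), stood at 81.6% and 75.7% in 344SQP and 64.0% and 49.0% in 344SQR, a difference of -22.1 points (edgeR log2 odds ratio -1.43, adjusted p = 0.0144). It holds part of Unc5d, a netrin receptor gene, whose body stood at 76.9% and 68.4% in 344SQP and 59.2% and 43.3% in 344SQR (28 sites). Its neighbours differed by -4.15 and -8.59 points, though smaller losses beside a bin chosen for its loss follow in part from the choice. The second, chr6:123000001-124000000 (50 sites), stood at 81.8% and 73.4% in 344SQP and 65.4% and 47.9% in 344SQR, a difference of -20.9 points (log2 odds ratio -1.47, adjusted p = 0.0140). It holds lectin receptor genes of myeloid cells, among them Clec4a4, at 91.7% and 87.0% in 344SQP and 80.5% and 70.2% in 344SQR (8 sites), and Clec4a2, at 61.6% and 36.6% in 344SQP and 40.4% and 23.8% in 344SQR (5 sites, with overlap). The vomeronasal receptor gene Vmn2r23 in it stood at 85.5% and 78.6% in 344SQP and 65.7% and 45.4% in 344SQR (6 sites).

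The third, chr8:96000001-97000000 (61 sites), held no protein-coding gene, the nearest being Got2, for the mitochondrial aspartate aminotransferase. It stood at 81.4% and 76.0% in 344SQP and 66.3% and 50.5% in 344SQR (-20.3 points, log2 odds ratio -1.52, adjusted p = 0.0050). The bin after it differed by -17.3 points. On chromosome 1, chr1:117000001-118000000 (66 sites, with the predicted genes Gm28168, Gm28363 and Gm28360) stood at 81.8% and 77.0% in 344SQP and 68.7% and 50.1% in 344SQR (-20 points, adjusted p = 0.00837). Also there, chr1:101000001-102000000 (57 sites, nearest gene Cntnap5b, a contactin-associated adhesion protein) stood at 88.5% and 82.3% in 344SQP and 72.1% and 58.7% in 344SQR (-19.9 points, adjusted p = 0.00894). Both of these belonged to runs, and their neighbours lay between -18.8 and -11.5 points.

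The bin chr19:39000001-40000000 (69 sites) carries part of the Cyp2c cluster of cytochrome P450 enzymes, which oxidize drugs and fatty acids in liver. It stood at 82.7% and 81.7% in 344SQP and 68.6% and 57.5% in 344SQR (-19.2 points, adjusted p = 0.00403), between neighbours at -1.72 and -3.38 points. Cyp2c66 stood at 82.3% and 80.7% in 344SQP and 68.3% and 57.2% in 344SQR (24 sites), Cyp2c38 at 92.2% and 91.5% in 344SQP and 88.8% and 84.5% in 344SQR (5 sites), and Cyp2c39 at 81.6% and 91.7% in 344SQP and 44.6% and 28.4% in 344SQR (2 sites). All 3 genes were thus lower in both 344SQR tumors, and most of their sites were those of Cyp2c66. In chr12:65000001-66000000 (56 sites), inside the long run on that chromosome, the values were 82.6% and 79.5% in 344SQP and 68.5% and 55.9% in 344SQR (-18.8 points, adjusted p = 0.0102). Fancm there stood at 96.6% and 96.8% in 344SQP and 89.5% and 86.3% in 344SQR (6 sites), the splicing factor gene Prpf39 at 33.8% and 30.5% in 344SQP and 21.4% and 13.2% in 344SQR (5 sites), and the retrogene Wdr20rt at 94.3% and 96.1% in 344SQP and 92.3% and 87.9% in 344SQR (4 sites).

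The last, chr10:38000001-39000000 (59 sites, 2 protein-coding genes, among them Rfpl4b with no site in its body), stood at 82.4% and 76.7% in 344SQP and 69.9% and 52.1% in 344SQR (-18.5 points, adjusted p = 0.0240). All 8 of these bins were called by edgeR with the 4 tumors, while 0 of the 8 were called without 344SQP replicate 1 (1 at unadjusted p under 0.05; limma called 0), without 344SQP replicate 2 (7 unadjusted; limma called 2) or without 344SQR replicate 2 (5 unadjusted; limma called 0). Without 344SQR replicate 1 edgeR and limma each called all 8. The 8 were chosen for their loss, so such counts say little of these bins in particular, and they went with the calls over all 2280 bins, of which edgeR called 377 lower with all tumors, 0 without 344SQP replicate 1 (328 unadjusted; limma called 0), 7 without 344SQP replicate 2, 1124 without 344SQR replicate 1 and 0 without 344SQR replicate 2 (395 unadjusted; limma called 0). With all 4 tumors limma called 0 of the 8 (8 unadjusted). The log2 odds ratios lay between -1.52 and -1.31 with all tumors, between -1.33 and -1.01 without 344SQP replicate 1, between -1.86 and -1.41 without 344SQP replicate 2, between -2.00 and -1.77 without 344SQR replicate 1 and between -1.07 and -0.659 without 344SQR replicate 2. A call could thus be lost while the estimate grew, as without 344SQP replicate 2. In 344SQP the 8 bins lay among the highly methylated ones, and in 344SQR replicate 2 they lay between 47.9% and 58.7%, near the mean of all bins.

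Stretches from the bins with the largest loss are shown to give the kind of sequence that was read, from the mm10 (GRCm38) reference, plus strand, 5′ to 3′, with the measured CpGs in capitals. The first lies in an intron of Unc5d at chr8:28780410-28780487 and stood at 76.6% and 65.4% in 344SQP and 59.0% and 27.5% in 344SQR (43 to 121 reads per site). The second lies between genes at chr8:96264836-96264925 and stood at 87.2% and 77.4% in 344SQP and 64.4% and 44.9% in 344SQR (39 to 208 reads). A stretch between genes at chr1:101210614-101210673 stood at 93.2% in both 344SQP tumors and at 79.0% and 57.0% in 344SQR (44 to 203 reads). The last lies between genes at chr12:65333878-65333965 and stood at 86.0% and 77.3% in 344SQP and 73.2% and 57.4% in 344SQR (95 to 218 reads). Each of these 4 holds 3 to 5 measured CpGs in fewer than 100 bases. They were chosen after their values were seen, from 1 stretch for each of the 8 bins, and the lines did not overlap in them. Of those not shown, the stretch in Clec4a4 overlapped, at 89.2% and 84.5% in 344SQP and 89.1% and 67.1% in 344SQR (-8.73 points), those in Gm28168 and Cyp2c66 differed by -9.86 and -9.61 points, and that near Rfpl4b by -16.6.
Unc5d intron: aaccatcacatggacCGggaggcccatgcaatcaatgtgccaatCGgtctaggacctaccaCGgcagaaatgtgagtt
Chromosome 8 between genes: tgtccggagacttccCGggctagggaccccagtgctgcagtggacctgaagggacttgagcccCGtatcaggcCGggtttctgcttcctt
Chromosome 1 between genes: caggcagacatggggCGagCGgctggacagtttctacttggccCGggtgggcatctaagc
Chromosome 12 between genes: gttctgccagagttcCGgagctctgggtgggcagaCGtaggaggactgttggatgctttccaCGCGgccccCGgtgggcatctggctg

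Gains were rare. The same rule asked for up to 4 bins with both 344SQR tumors above both 344SQP tumors, and 3 such bins existed. The largest, chr1:163000001-164000000 (97 sites), stood at 32.1% and 37.4% in 344SQP and 39.5% and 48.6% in 344SQR, a difference of 9.29 points (log2 odds ratio 0.55, adjusted p = 0.0981, not called). The gain lay in Prrx1, a homeobox transcription factor of mesenchymal cells, whose body stood at 12.1% and 17.9% in 344SQP and 24.7% and 44.3% in 344SQR (38 sites). Scyl3, a pseudokinase gene, was at 1.62% or lower in all 4 tumors (19 sites), and Kifap3, for a subunit of kinesin-2, was at 95.6% or higher (11 sites), so both were near the ends of the scale in each line. Over the bin 31 of the 97 sites had a lower mean in 344SQR. Without 344SQR replicate 1 edgeR called this bin, at a log2 odds ratio of 0.85, whereas the ratio fell to 0.258 without 344SQR replicate 2 (adjusted p = 0.433) and to 0.333 without 344SQP replicate 1 (adjusted p = 0.566). Its neighbours differed by -6.12 and -5.59 points. The stretch printed here lies within Prrx1 outside annotated exons, at chr1:163312001-163312072 (mm10, plus strand), and stood at 17.3% and 14.6% in 344SQP and 42.9% and 59.5% in 344SQR (59 to 87 reads per site). It holds 6 measured CpGs in 72 bases, against 3 to 5 measured CpGs in each stretch with loss. CpGs left in lower case are not in these counts. The stretch taken from Csf2ra in the second gain bin is not shown and held 1 measured CpG. It did not gain, at 96.2% and 99.1% in 344SQP and 95.2% and 98% in 344SQR (-1.05 points, with overlap).
Prrx1 within the gene: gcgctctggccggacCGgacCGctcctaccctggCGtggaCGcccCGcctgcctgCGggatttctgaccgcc

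The other gains were smaller. chr19:61000001-62000000 (176 sites) stood at 42.1% and 43.8% in 344SQP and 46.5% and 48.0% in 344SQR (4.32 points, adjusted p = 0.165), and 139 of its sites lay in Csf2ra, the alpha subunit of the receptor for the growth factor GM-CSF, at 37.6% and 39.5% in 344SQP and 43.9% and 46.6% in 344SQR. In the same bin Grk5, a kinase of G protein-coupled receptors, stood at 98.7% and 98.0% in 344SQP and 96.0% and 87.0% in 344SQR (6 sites), and Zfp950, a zinc finger gene, at 98.9% and 98.3% in 344SQP and 96.6% and 88.0% in 344SQR (7 sites). The bin thus joined a gain in 1 gene with lower values in 2 others, and its log2 odds ratio of 0.342 was 0.183 without 344SQP replicate 1. chr12:9000001-10000000 (87 sites) stood at 65.9% and 67.0% in 344SQP and 67.1% and 71.0% in 344SQR (2.59 points, adjusted p = 0.40), although 49 of its 87 sites had a lower mean in 344SQR. Its log2 odds ratio of 0.313 was 0.0335 without 344SQR replicate 2 (adjusted p = 0.890) and 0.593 without 344SQR replicate 1 (adjusted p = 0.0691), so this gain rested largely on 344SQR replicate 2. There Osr1, a zinc finger transcription factor of early kidney and limb mesoderm, stood at 32.6% and 44.4% in 344SQP and 48.8% and 79.3% in 344SQR (28 sites), and Ttc32, a tetratricopeptide repeat gene, at 92.8% and 94.9% in 344SQP and 92.6% and 92.2% in 344SQR (4 sites). The bin that edgeR called higher was another, chr14:104000001-105000000, named after its values were seen. It stood at 31.1% and 40.4% in 344SQP and 36.5% and 51.7% in 344SQR (log2 odds ratio 0.53, adjusted p = 0.0487), so its lines overlapped.

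A bulk tumor mixes cancer cells with host cells, so a lower methylation of the cancer cells and another share of host cells cannot be told apart in these values. Sites in the promoters of leukocyte genes were covered for 5 of 15 markers, with a mean of 56.2% and 61.0% in 344SQP and 49.3% and 43.4% in 344SQR. The lines did not overlap in this mean, though among the 5 genes only Cd2, an adhesion receptor of T cells, was without overlap, at 85.1% and 81.4% in 344SQP and 69.2% and 38.8% in 344SQR on 1 site. Coro1a, with 33 sites, had a slightly higher mean in 344SQR with overlap, at 18.4% and 25.2% in 344SQP and 18.1% and 28.6% in 344SQR, and Spi1 differed mainly by replicate, at 43.8% and 88.5% in 344SQP and 36.2% and 83.1% in 344SQR on 1 site. The genes of this list were thus not alike. Promoters of epithelial and lung adenocarcinoma genes (7 of 9 covered) had a low mean in all 4 tumors, at 12.3% and 10.7% in 344SQP and 11.2% and 8.91% in 344SQR. Among them Cldn4 was higher, at 39.8% and 30.7% in 344SQP and 35.5% and 16.7% in 344SQR (3 sites), and Nkx2-1, with 80 sites, stood at 9.86% and 14.5% in 344SQP and 12.7% and 18.7% in 344SQR, both with overlap. Endothelial genes (3 of 5) stood at 43.4% and 58.4% in 344SQP and 30.6% and 59.2% in 344SQR, with overlap. Fibroblast genes (3 of 5) stood at 46.1% and 50.7% in 344SQP and 41.1% and 44.9% in 344SQR, and muscle genes (4 of 4) at 48.5% and 47.8% in 344SQP and 41.5% and 37.3% in 344SQR, both without overlap in the mean. Gene by gene, 2 of the 3 fibroblast genes and 2 of the 4 muscle genes were lower without overlap. The fibroblast genes had 1 to 4 sites each. Of the muscle genes 3 had a lower mean in 344SQR, while Acta1 had a higher one (3.11 points, 8 sites, with overlap). Reads on chromosome X were 1.62% and 1.30% of autosomal reads in 344SQP and 1.54% and 1.19% in 344SQR, and on chromosome Y 0.0413% and 0.0257% in 344SQP and 0.0563% and 0.0180% in 344SQR. On both sex chromosomes the replicates 2 were lower than the replicates 1, and the lines overlapped. The part of cell mixture in the loss over bins was not tested.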

How the data were processed

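Reduced representation bisulfite sequencing tables of 4 tumors were used. Per the submitters' processing notes and the study's methods, reads were trimmed with Trim Galore 0.4.1 and cutadapt 1.9.1, aligned to mm10 with Bismark and Bowtie 1.1.2, and methylation was called with Bismark's own script and 1 of the authors' in Perl. The authors used methylKit for their differential test. The deposited tables give, for each CpG cytosine, the coverage as a read count and the percent of reads with C and with T. Methylated counts were recovered here as percent times coverage, rounded to whole reads. Every CpG cytosine kept was at a CpG of the RefSeq GRCm38.p6 reference, from which printed sequences were read, and genes were taken from the GENCODE vM21 basic annotation. Bins were tested with edgeR 4.0.16 in R 4.3.3 (quasi-likelihood, 1 effect per tumor and a term for line), and with limma 3.58.1 as an alternative. The edgeR test was first run on simulated reads with noise that was independent between bins. Those reads lacked the lower level of most bins and the joint deviation of tumors of equal number. That run therefore cannot show how the test behaves under them. Other values were computed with Python 3.11.15, pandas 2.3.3, numpy 2.4.6 and scipy 1.17.1. Single values per tumor were compared by two-sided exact permutation, which cannot go below p = 0.333 for 2 against 2.

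Named bins were the 8 with the most negative and up to 4 with the most positive mean difference among those with 50 or more sites and no overlap between lines, at most 2 per direction from 1 chromosome, and the 5 longest runs. Up to 3 protein-coding genes were named per bin or run, those whose bodies hold the most sites, or else the nearest gene. The members, lists and rules were chosen with earlier results of these data known. Tumors of a line came from different mice, and reads without molecular identifiers are not independent molecules. Alternatives were other read and site minimums, bin sizes, promoter windows, strand merging and a cap on coverage. Further ones were CpG-poor sites (at most 3 other CpGs within 100 bp on each side), other tests and leaving out each tumor.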

Additional observations from a re-analysis of the deposited data

How the results depend on the processing

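The mean bin difference was negative under all 15 alternatives run for it, between -10.2 and -4.92 points without 1 tumor and between -10 and -6.22 otherwise, and gene-poor minus gene-rich bins was negative under all 18, between -9.90 and -3.49 points without 1 tumor and between -8.52 and -4.85 otherwise. Neither can pass the exact permutation test over tumors, whose smallest p is 0.333 with 2 against 2. The number of bins that edgeR called lower ranged from 0 to 1124 without 1 tumor (a lone tumor of a line was then taken to vary like the other line) and the number called higher from 0 to 3. It was 0 with 50 reads (809 lower and 1 higher at unadjusted p under 0.05), 221 with 50 or more sites per bin, 86 with CpG-poor sites alone and 111 at adjusted p under 0.01. No bin was called higher with 10 reads, 50 reads, 50 or more sites, merged strands, 2 Mb bins, 5000 bp around each start site left out, CpG-poor sites or adjusted p under 0.01, a count of 0 each, with 0 to 3 at unadjusted p under 0.05. limma called 0 lower and 0 higher (794 unadjusted), also 0 and 0 after centring (190 unadjusted), and the study's site test combined by Stouffer's method, which leaves out the spread between tumors, called 2208 lower and 36 higher. With the replicate number as a replicate block edgeR called 797 lower and 1 higher, among them all 378 bins called without it, and limma 977 lower and 2 higher. The numbers name different mice and the labels state no pairing, although replicate 2 minus 1 of 344SQP and of 344SQR correlated across bins at r = 0.844, so a count moved by the block is not a weaker or stronger effect. The correlation of neighbouring bins was 0.260 with 10 reads, 0.181 with 50 reads, 0.0944 with 50 or more sites, 0.186 with 500 kb bins, 0.193 with bins shifted by 500 kb, 0.174 with CpG-poor sites, 0.190 from summed reads, and 0.179 to 0.249 without 1 tumor. The correlation between disjoint tumor pairs lay between 0.829 and 0.911 in the pairing by number and between -0.187 and 0.40 in the other, where it was highest with CpG-poor sites alone (0.40) and with 5000 bp around each start site left out (0.159). Runs numbered 211 at -5 points, 7 at -15 points, 134 with 2 or more bins, 9 with 5 or more, and 4 to 119 without 1 tumor. Of the 11 named bins, 0 to 9 were called without 1 tumor and 8 with the replicate block. Among lone CpGs, A or T minus G or C flanks lay between -2.34 and 0.596 points without 1 tumor, the same flanks over all sites between -4.06 and -0.996 (main -2.53), lone minus dense CpGs between -18.3 and -3.31 (main -10.8), between genes minus in genes between -7.16 and -1.84 (main -4.50), repeat minus other sites between -8.14 and -1.83 (main -4.99) and gene-poor minus gene-rich lone CpGs between -10.6 and -4.26 (main -7.43). These leave-outs were also added after the data were seen. The causes of these changes were not tested.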

Other observations

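Values outside the autosomal bins can be set beside them. The 153 bins of chromosome X that met the same rule stood at 75.1% and 72.2% in 344SQP and 70.5% and 60.5% in 344SQR, a difference of -8.19 points, with both 344SQR tumors below both 344SQP tumors and 344SQR replicate 2 lowest, as on the autosomes. Autosomal promoter sites, which the rule leaves out, were low throughout, at 8.55% and 10.8% in 344SQP and 8.39% and 10.4% in 344SQR (593933 sites), and the lines overlapped. In promoters of bins with 0 to 1 genes the values were 19.5% and 28.2% in 344SQP and 19.6% and 26.5% in 344SQR (177 bins), again with overlap. Promoter sites were thus higher in replicate 2 of each line, whereas outside promoters 344SQR replicate 2 was the lowest of the 4 tumors.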
